A study of Mus musculus with 4 samples.

Results

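The genes described here encode the proteins of the cytosolic ribosome. They were chosen by symbol: every Rpl or Rps symbol made of a number with at most an ending such as a, l, x or y and a digit, together with Rplp0, Rplp1, Rplp2 and Rpsa. The rule found 85 of the 25239 gene symbols in the files, of which 51 encode proteins of the large subunit or their paralogues, 32 encode proteins of the small subunit or their paralogues, and 2 (Rpl32l and Rps4l) are annotated as processed pseudogenes in GENCODE M21. Fau, Rack1 and Rpl36al also encode ribosomal proteins, but their symbols lie outside the rule and they are given separately.

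The libraries were RNA-Seq of cells labelled as CD4+ T cells infiltrating lung tumors of C57BL/6 mice, 2 from WT mice and 2 from CD4CreERT2+/-/Acvr1bfl/fl mice, named CD4/ALK4-KO. In the latter, tamoxifen activates a Cre recombinase that is driven by the Cd4 promoter, and Cre deletes the floxed Acvr1b gene, which encodes the activin receptor ALK4. The methods describe male mice of 8 to 10 weeks, tamoxifen at 75 mg/kg on 5 days, and intravenous inoculation of 500000 LLC-OVA cells, which are Lewis lung carcinoma cells carrying ovalbumin as a model antigen. The labels give excision of the tumors on days 18 to 22, the methods on days 16 to 20, and the series names its replicates as biological without saying how many mice each library holds. Whether the WT mice also received tamoxifen is not given in the sources used here.

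The ribosome reads mRNA on its small subunit and joins amino acids on its large subunit, and each of its proteins is normally present as a single copy, except for the P-stalk proteins. The mRNAs of ribosomal proteins begin with a run of pyrimidines, the terminal oligopyrimidine (TOP) motif, through which mTOR signalling controls their translation as a group. Activated T cells enlarge their ribosome pool before they divide. Ribosomal protein mRNAs are short and abundant, and they have been copied back into the genome many times as processed pseudogenes.

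The starts of 8 of the genes are shown, chosen because the letters CTCTTT lie near their starts, which most windows of the family do not have. Each line gives 30 bases of RefSeq sequence on GRCm38.p6, read along the gene, with the RefSeq transcription start at base 16 and the letters CTCTTT in capitals.
Rpl35, chr2:39005117-39005146, minus strand: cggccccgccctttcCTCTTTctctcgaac
Rps6, chr4:86857353-86857382, minus strand: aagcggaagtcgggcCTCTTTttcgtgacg
Rps9, chr7:3704026-3704055, plus strand: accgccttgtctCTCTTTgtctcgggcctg
Rpl28, chr7:4792950-4792979, plus strand: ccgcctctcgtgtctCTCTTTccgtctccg
Rpl18, chr7:45718056-45718085, plus strand: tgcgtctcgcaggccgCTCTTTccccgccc
Rps15a, chr7:118116133-118116162, minus strand: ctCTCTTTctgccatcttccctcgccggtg
Rps26, chr10:128626492-128626521, minus strand: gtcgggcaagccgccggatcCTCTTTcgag
Rpl35a, chr16:33056467-33056496, plus strand: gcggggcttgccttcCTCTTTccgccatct
In Rpl35, Rps6, Rpl28 and Rpl35a the run of capitals begins at the annotated start itself, and in Rps15a it lies wholly before that start.

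RefSeq promoter windows, which run from 250 bases before the start to 50 bases after it, were at hand for 64 members, in 76 windows. The letters CTCTTT lay within 10 bases of the start on the gene's strand in 7.90% of the members' windows and in 0.691% of all 32851 windows. Anywhere in the window and on either strand, CTCTTT was found in 43.4% against 23.0%, and CCGGAAG, the core that ETS factors such as GABP bind, in 35.5% against 8.86%. CACGTG, the E-box bound by MYC, was found in 10.5% against 7.15%, and TATAAA in 10.5% against 13.6%. None of these motifs contains another, and a match describes the letters only.

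Many of the members cannot be told from their copies by a read of 75 bases. Of the 83 members with a coding sequence, 23 had no 75-base window of their coding sequence that was absent from every other annotated gene, and 4 had every transcript window to themselves. The median member had 54.1% of its transcript windows to itself, and 686 annotated pseudogenes shared at least 1 window with a member, of which 19 have their symbol in the files. The first 75 coding bases of 5 members are shown because identical bases occur in other annotated genes, with the start codon in capitals.
Rpl41: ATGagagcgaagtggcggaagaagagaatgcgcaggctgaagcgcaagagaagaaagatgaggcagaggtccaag
Rps27: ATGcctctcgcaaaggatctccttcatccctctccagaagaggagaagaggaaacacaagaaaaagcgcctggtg
Rpl26: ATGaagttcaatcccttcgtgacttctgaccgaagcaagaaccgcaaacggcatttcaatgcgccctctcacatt
Rpl30: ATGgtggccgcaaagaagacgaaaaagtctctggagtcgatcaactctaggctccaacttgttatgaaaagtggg
Rpl34: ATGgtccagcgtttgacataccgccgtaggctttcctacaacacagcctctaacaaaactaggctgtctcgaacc
In GENCODE M21 on GRCm38, Rpl41 lies at chr10:128548114-128549305 on the minus strand, and these bases, its whole coding sequence before the stop codon, occur in 4 other genes, 3 of them pseudogenes. Rps27 lies at chr3:90212522-90213651 on the minus strand, and its bases occur in the retrotransposed copy Rps27rt. Rpl26 lies at chr11:68901583-68906989 on the plus strand and shares its bases with 2 pseudogenes. Rpl30 lies at chr15:34440505-34443640 on the minus strand and shares them with 1 pseudogene, Gm12191. Rpl34 lies at chr3:130726831-130730398 on the minus strand and shares them with 4 pseudogenes, among them Rpl34-ps1.

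Rps27, Rpl26, Rpl30 and Rpl34 had low counts, as did the paralogues Rpl10l, Rpl3l and Rpl39l and the pseudogenes Rps4l and Rpl32l. Rps27 had 61 and 59 counts in the WT libraries and 50 and 77 in the CD4/ALK4-KO libraries, and Rps27rt had 0 in all 4. Rpl26 had 18 and 21 counts in WT and 11 and 6 in CD4/ALK4-KO, while Gm15772, a pseudogene with the same 75 bases, had 0 in all 4. Rpl30 had 176 and 180 counts in WT and 113 and 85 in CD4/ALK4-KO. Rpl34 had 147 and 191 counts in WT and 148 and 119 in CD4/ALK4-KO. These are core ribosomal proteins, although Rps27 has the paralogue Rps27l, and their mean level over the 4 libraries was 19.1, 2.46, 30.8 and 33.4 CPM (counts scaled to library size) per kb of coding sequence for Rps27, Rpl26, Rpl30 and Rpl34, against a median of 1717 over the 82 members with a coding sequence and a count. The part of the shared bases in these low counts was not tested, and the values are levels in the files only.

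Members with few unique windows could also have high levels. Over the 82 members, Spearman's rho between the percentage of unique windows and CPM per coding kb was 0.415, as a description across genes of the same 4 libraries. Rps6 had 14223 and 13559 counts in WT and 9365 and 9933 in CD4/ALK4-KO, with 15.9% of its transcript windows and no coding window to itself. Rpl41 had the largest level per coding kb, 6382 CPM. Of its 544 transcript bases 75 are coding, so the rank holds per coding kb only. None of its 4 coding windows was its own, but 71.7% of its transcript windows were. Rps3 had every window to itself, with 33775 and 33507 counts in WT and 26713 and 29397 in CD4/ALK4-KO. Rpl39l and Rpl3l, paralogues with restricted tissue expression, also had every window to themselves, and their levels of 7.35 and 0.569 CPM per coding kb were low with no shared window.

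**Figure D1:**
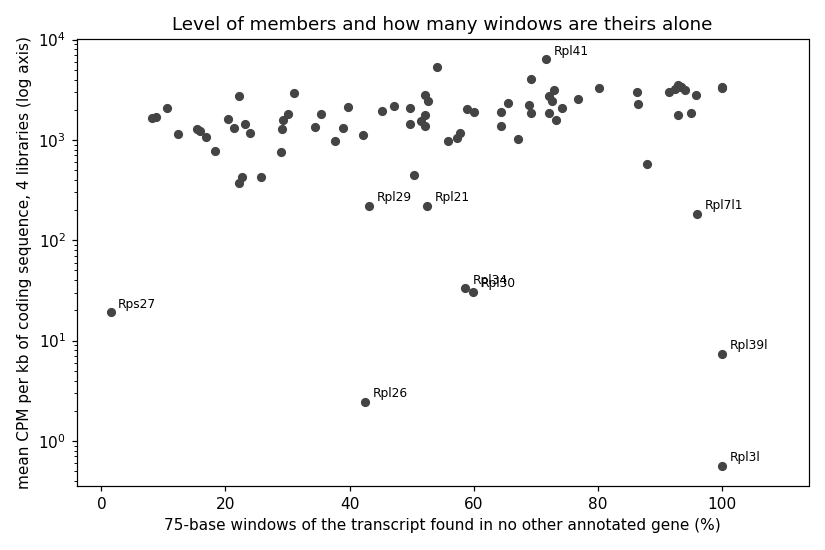
Each point is a member with a coding sequence and at least 1 count; the horizontal axis gives the percentage of 75-base windows of its transcript that no other annotated gene holds, and the vertical axis its mean CPM per kb of coding sequence over the 4 libraries, on a log axis. Rps27, Rpl26, Rpl30 and Rpl34 lie between 2.46 and 33.4, below the median of 1717, while Rpl39l and Rpl3l are low with all windows unique.

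Before the genotypes were compared, the labels were checked. The total counts were 13869889 and 13943237 in WT and 11959487 and 11823908 in CD4/ALK4-KO. The targeted gene Acvr1b had 31.1 and 25.3 CPM in WT and 27.1 and 36.0 CPM in CD4/ALK4-KO. Its difference of 0.16 on the log2 scale (SE 0.24, adjusted p = 0.66 by edgeR's quasi-likelihood test) did not separate the genotypes. Since counts per gene do not show single exons, the genotypes stand throughout as the labels name them. Cd4 had 55.4 and 48.0 CPM in WT and 307 and 327 CPM in CD4/ALK4-KO, and all 9 measured T cell markers were called higher in CD4/ALK4-KO, with a summed level of 375 to 412 CPM in WT and 1979 to 2111 CPM in CD4/ALK4-KO. Macrophage and monocyte markers summed to 5955 to 7204 CPM over the 4 libraries, and fibroblast markers to 6712 to 7307 CPM in WT and 3965 to 4773 CPM in CD4/ALK4-KO, so each of these summed levels exceeded that of the T cell markers in every library. Fibroblast markers were called lower for 4 of 7, lung epithelial markers for 4 of 6, with Epcam called higher, and proliferation markers for 5 of 6, the last with 1185 to 1300 CPM in WT and 646 to 850 CPM in CD4/ALK4-KO. All 8 B cell markers were called higher, with 60.3 to 72.6 CPM in WT and 213 to 439 CPM in CD4/ALK4-KO. The part of the cell mixture in the results below was not tested, and in bulk libraries fewer cells of a type and less RNA per cell cannot be told apart.

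Ribosomal protein genes took a smaller share of the counts in the CD4/ALK4-KO libraries. The share was 8.30% and 7.84% in WT and 5.68% and 6.80% in CD4/ALK4-KO, or 8.07% ± 0.325 and 6.24% ± 0.795 (SD, n = 2 each). Both CD4/ALK4-KO libraries lay below both WT libraries, and an exact two-sided permutation test over the samples gave p = 0.333, the smallest that 2 against 2 libraries allow. The large subunit accounted for 4.53% and 4.23% in WT and 3.02% and 3.62% in CD4/ALK4-KO, and the small subunit for 3.77% and 3.60% in WT and 2.65% and 3.18% in CD4/ALK4-KO. Both subunits thus had the same order of libraries, with CD4/ALK4-KO replicate 1 the lowest.

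**Figure D2:**
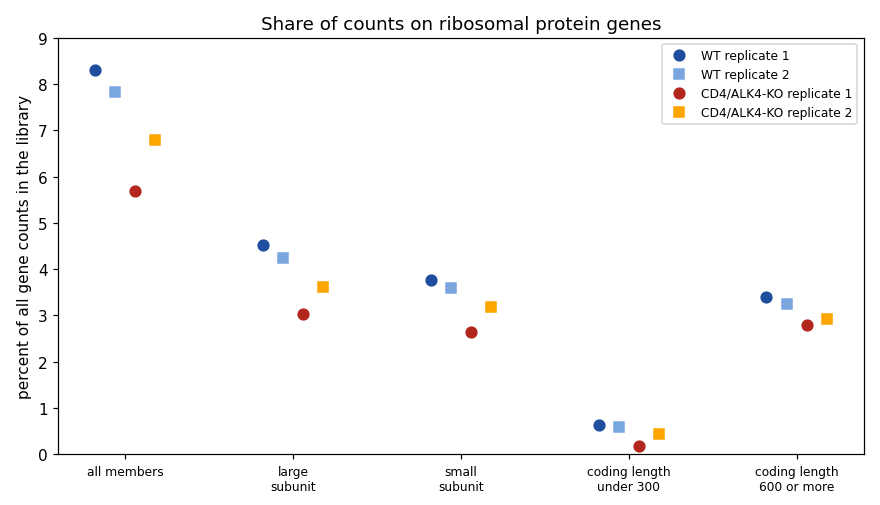
The vertical axis gives the percentage of all gene counts of a library that fell on ribosomal protein genes, for all members, each subunit, and the members with under 300 and with 600 or more coding bases; each point is 1 library. In each of the 5 classes both CD4/ALK4-KO libraries lie below both WT libraries, from 0.170% against 0.632% for the shortest members in the first replicate of each genotype to 2.79% against 3.40% for the longest.

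Gene by gene, 27 of the 84 tested members were called lower in CD4/ALK4-KO and 0 were called higher. Calls used edgeR's quasi-likelihood test over 13919 genes, with a Benjamini-Hochberg adjusted p under 0.05, and 15.4% of all tested genes were called lower and 17.4% higher. By DESeq2's Wald test 29 members were called lower and 0 higher, and at an unadjusted p under 0.05 by edgeR 42 members were lower and 0 higher. The median log2 fold change was -0.46 over the members and -0.01 over all tested genes, and 81 members had a value below 0 and 3 above it. In 69 members both CD4/ALK4-KO libraries lay below both WT libraries, which was the case for 34.0% of all tested genes. Rpl10l, a paralogue of Rpl10 that is known from the testis, was the member not tested: it had 0 counts in every library, and 3 counts would be 0.215 to 0.254 CPM.

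The count depended on the libraries and on gene length. It was 9 when WT replicate 1 was left out and 14 when WT replicate 2 was, and 5.24% and 7.27% of all tested genes were then called lower. Leaving out CD4/ALK4-KO replicate 1 gave 33 members and a median log2 fold change of -0.34, whereas leaving out its replicate 2 gave 49 and a median of -0.62, beside 17.5% and 18.1% of all tested genes. With an offset for coding length, chosen after the data were seen, 4 of 82 members were called lower, namely Rps27l, Rps12, Rpl36 and Rpl24, with a median of -0.22, and 65 of the 82 values were below 0. In that fit 13.3% of all tested genes were called lower, a larger share than of the members. All fold changes are relative to the scaled totals of the libraries (TMM scaling in the reported fit). Scaled to 4 T cell receptor complex genes, which rose in CD4/ALK4-KO, the median of all genes moved to -2.19 and that of the members to -2.63, or -0.44 relative to all genes.

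The lowest fold changes included those of proteins with very short coding sequences. Rpl41, the smallest ribosomal protein, had 729 and 661 CPM in WT and 147 and 377 CPM in CD4/ALK4-KO. The log2 fold change was -1.41 (SE 0.40, adjusted p = 0.030 by edgeR). Rpl38, of the large subunit, had 515 and 506 CPM in WT and 130 and 327 CPM in CD4/ALK4-KO, with a log2 fold change of -1.16 (SE 0.37, adjusted p = 0.038 by edgeR). In both genes CD4/ALK4-KO replicate 1 was the lowest library and the groups did not overlap. The calls were lost by DESeq2 (adjusted p = 0.086 for Rpl41 and 0.16 for Rpl38) and under upper quartile scaling in edgeR (adjusted p = 0.057 and 0.071), and likewise with the offset for coding length (adjusted p = 0.15 and 0.17).

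Rps28 and Rps29, both small-subunit proteins, had differences of like size that did not pass the test. Rps28 had 745 and 716 CPM in WT and 145 and 414 CPM in CD4/ALK4-KO, with a log2 fold change of -1.39 (SE 0.51, adjusted p = 0.10). Rps29 had 959 and 937 CPM in WT and 146 and 674 CPM in CD4/ALK4-KO, with a log2 fold change of -1.21 (SE 1.00, adjusted p = 0.49). Rpl39, which lines the exit tunnel, had 698 and 657 CPM in WT and 170 and 443 CPM in CD4/ALK4-KO, with a log2 fold change of -1.15 (SE 0.41, adjusted p = 0.071). In all 3 genes CD4/ALK4-KO replicate 1 was again the lowest library, far below replicate 2. With the replicate number as a block edgeR called all 3 (adjusted p = 3.6e-05, 4.8e-05 and 0.00079), although the labels link same-numbered libraries by number only. Without the filter on low counts edgeR also called Rps28 and Rpl39. With the offset for coding length none of the 3 passed (adjusted p = 0.18, 0.7 and 0.27 by edgeR). Rpl39 was not called by DESeq2 (adjusted p = 0.18) or under upper quartile scaling in edgeR (adjusted p = 0.1). The log2 fold changes of Rps28, Rps29 and Rpl39 were -0.79, -0.46 and -0.58 with CD4/ALK4-KO replicate 1 left out. With its replicate 2 left out they were -2.34, -2.70 and -2.01.

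Rps27l had the smallest p-value of the family. It is a paralogue of Rps27 and a known target of p53, and it had 194 and 215 CPM in WT and 78.7 and 97.2 CPM in CD4/ALK4-KO. The log2 fold change was -1.22 (SE 0.22, adjusted p = 0.00017 by edgeR) and remained at -0.70 with the offset for coding length (adjusted p = 0.016). The CD4/ALK4-KO libraries lay close together here, well below the WT libraries.

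Rpl36, Rps12, Rpl37, Rpl35a and Rpl24 completed the 6 called members with the smallest p-values. Rpl36, of the large subunit, had 606 and 548 CPM in WT and 169 and 312 CPM in CD4/ALK4-KO, with a log2 fold change of -1.26 (SE 0.25, adjusted p = 0.00057). Rps12, of the small subunit's beak, had 1145 and 1073 CPM in WT and 455 and 605 CPM in CD4/ALK4-KO, with a log2 fold change of -1.06 (SE 0.21, adjusted p = 0.00061). Rpl37, of the large subunit, had 848 and 837 CPM in WT and 253 and 507 CPM in CD4/ALK4-KO, with a log2 fold change of -1.15 (SE 0.26, adjusted p = 0.0022). These genes fell in both CD4/ALK4-KO libraries, further in replicate 1. Rpl35a, a large-subunit protein, had 460 and 424 CPM in WT and 139 and 274 CPM in CD4/ALK4-KO, with an adjusted p of 0.0030. Rpl24, which forms a bridge between the subunits, had 934 and 815 CPM in WT and 473 and 498 CPM in CD4/ALK4-KO, with an adjusted p of 0.0034 and CD4/ALK4-KO libraries that lay close together. The call of Rpl24 was lost without WT replicate 1 (adjusted p = 0.14), and those of Rpl37 and Rpl35a with the offset for coding length (adjusted p = 0.052 and 0.059).

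At the other end, none of the 6 members with the highest log2 fold changes passed the test. Of these, Rps27 had 0.24 (SE 0.39) and Rps4l 0.49 (SE 0.37), both at low counts. Rpsa, also known as the laminin receptor, had 1416 and 1289 CPM in WT and 1422 and 1301 CPM in CD4/ALK4-KO, with a log2 fold change of 0.01 (SE 0.20, adjusted p = 0.98). Rps13 had 599 and 617 CPM in WT and 581 and 608 CPM in CD4/ALK4-KO, with a log2 fold change of -0.03 (SE 0.21). Rpl13a, a part of the complex that silences inflammatory mRNAs, had 2345 and 2013 CPM in WT and 2121 and 2091 CPM in CD4/ALK4-KO, with a log2 fold change of -0.05 (SE 0.19). Rpl9 had 965 and 998 CPM in WT and 982 and 913 CPM in CD4/ALK4-KO, with a log2 fold change of -0.05 (SE 0.20). In each of these 4 genes the genotypes overlapped. The sign of Rpsa turned to -0.06 under upper quartile scaling, and those of Rpl13a, Rpl9 and Rps13 turned with the offset for coding length.

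Of the 8 members with the highest mean CPM, only Rplp1, given below with the P stalk, was called. Rpl4, with the longest coding sequence of 1257 bases, had 4145 and 4139 CPM in WT and 3413 and 3324 CPM in CD4/ALK4-KO, with a log2 fold change of -0.30 (SE 0.18, adjusted p = 0.22). Rps3, which forms part of the mRNA entry channel, had 2465 and 2477 CPM in WT and 2244 and 2381 CPM in CD4/ALK4-KO, with a log2 fold change of -0.09 (SE 0.19, adjusted p = 0.74). In both genes the groups did not overlap, but the difference did not pass the test. Rps7 had 1965 and 1983 CPM in WT and 1564 and 1281 CPM in CD4/ALK4-KO (adjusted p = 0.071), and Rps4x had 1913 and 1861 CPM in WT and 1661 and 1502 CPM in CD4/ALK4-KO (adjusted p = 0.34).

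**Figure D3:**
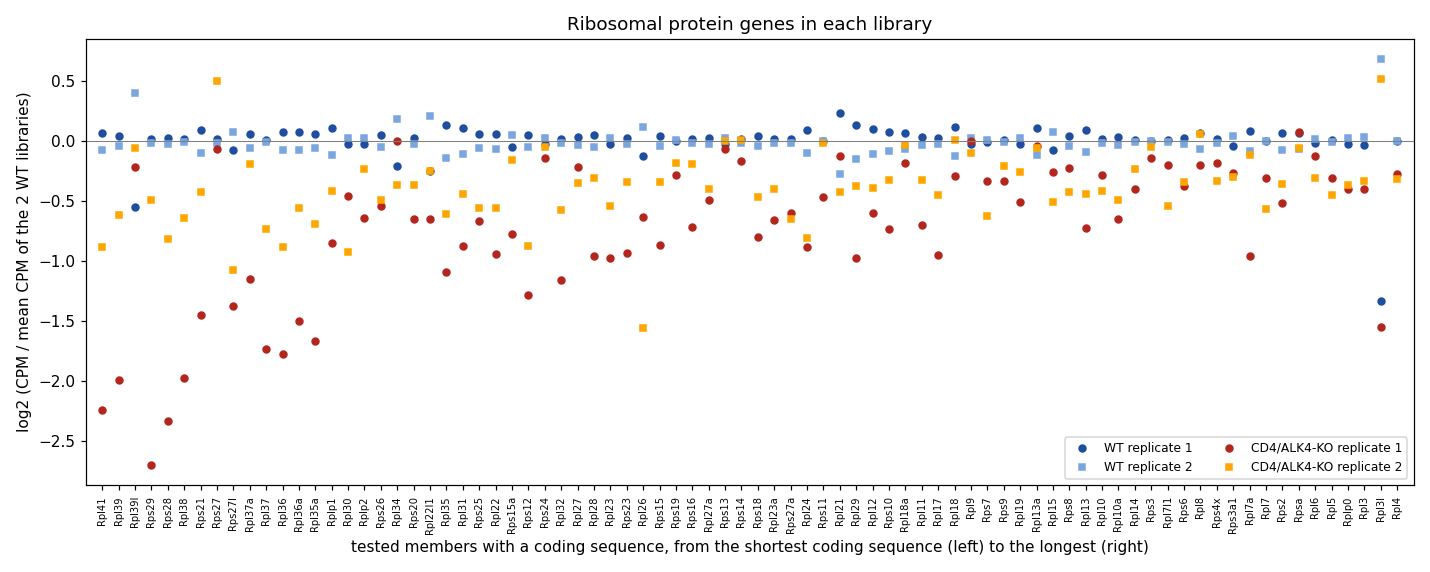
Tested members with a coding sequence are columns, ordered from the shortest coding sequence to the longest, and each point is 1 library, plotted as the log2 ratio of its CPM to the mean CPM of the 2 WT libraries. CD4/ALK4-KO replicate 1 (dark red) falls furthest among the short members at the left, as for Rps29 with 146 CPM against 959 and 937 in WT, and nears the other libraries among the long ones at the right.

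Short members had the lowest fold changes, and short genes outside the family had lower ones than long genes. Among the 11 tested members with under 300 coding bases the median log2 fold change was -1.15, and among the 258 other tested genes of that length it was -0.55. From 300 to under 450 coding bases the medians were -0.61 over 28 members and -0.40 over 563 other genes, and from 450 to under 600 they were -0.47 over 19 members and -0.26 over 785 other genes. At 600 coding bases or more they were -0.34 over 24 members and 0.04 over 11477 other genes. The members called lower were 5 of 11, 14 of 28, 5 of 19 and 2 of 24 in these classes, beside 41.5%, 32.9%, 23.8% and 13.3% of the other genes. The members' medians were below those of the other genes in each class. The medians were not tested against each other.

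CD4/ALK4-KO replicate 1 and the shortest members stood apart together. In the class under 300 coding bases the median log2 ratio of CD4/ALK4-KO replicate 1 to replicate 2 was -1.02 over the members and -0.23 over the other genes, and the same ratio of the WT libraries was 0.04 over the members and -0.004 over the other genes. At 600 coding bases or more the ratio between the CD4/ALK4-KO libraries was -0.01 over the members and -0.01 over the other genes. The shortest members had a median log2 fold change of -0.58 with CD4/ALK4-KO replicate 1 left out and of -1.74 with its replicate 2 left out. Over the 82 members, Spearman's rho between coding length and log2 fold change was 0.56, and 0.37 without CD4/ALK4-KO replicate 1, and over 13083 other tested genes it was 0.24, as a description across genes that share the same 4 libraries. RNA integrity and insert size were not analysed here, and the part of either in this pattern was not tested.

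**Figure D4:**
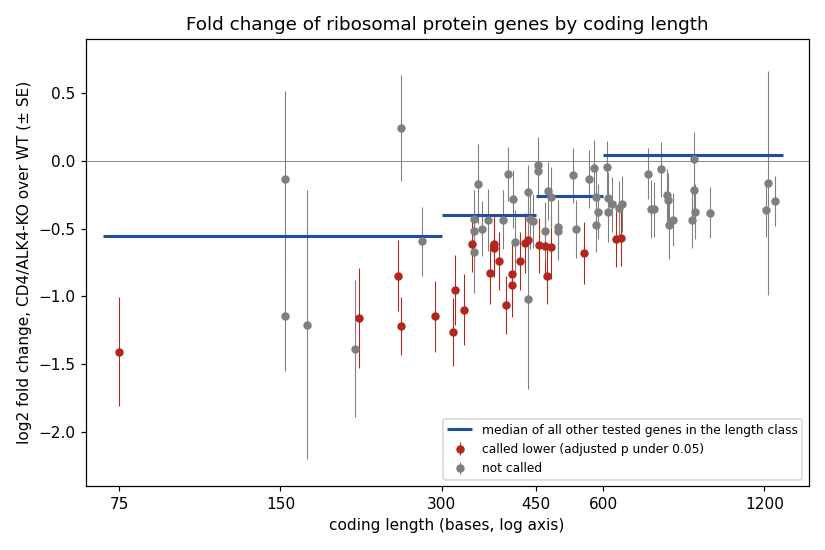
Each point is a tested member with its log2 fold change of CD4/ALK4-KO over WT and its standard error, against coding length in bases on a log axis, in red where called lower; blue bars give the median of all other tested genes in 4 length classes. The members descend toward short lengths, to -1.41 for Rpl41, while the medians of the other genes run from 0.04 in the longest class to -0.55 in the shortest.

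By their place in the ribosome, the members gave the following counts. Of the large subunit 17 of 50 tested members were called lower, with a median log2 fold change of -0.48. Of the small subunit 9 of 32 were called lower, with a median of -0.44. These are 34.0% and 28.1%, beside 15.4% of all tested genes. Of the P stalk, which recruits the elongation factors, Rplp1 fell from 2380 and 2043 CPM in WT to 1230 and 1652 CPM in CD4/ALK4-KO (log2 fold change -0.62, SE 0.21, adjusted p = 0.024). Rplp0 had 2594 and 2671 CPM in WT and 1994 and 2042 CPM in CD4/ALK4-KO (adjusted p = 0.13), and Rplp2 had 1004 and 1042 CPM in WT and 654 and 868 CPM in CD4/ALK4-KO (adjusted p = 0.13). All 3 had CD4/ALK4-KO libraries below the WT libraries, and only Rplp1 of them passed the test. Its call was lost without WT replicate 1 (adjusted p = 0.36), without WT replicate 2 (0.11), with the replicate block (0.10) and with the offset for coding length (0.48).

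Rpl5 and Rpl11 carry the 5S rRNA into the ribosome and, when free, restrain Mdm2 and so raise p53. Rpl5 had 1382 and 1363 CPM in WT and 1110 and 1007 CPM in CD4/ALK4-KO (log2 fold change -0.38, SE 0.20, adjusted p = 0.16). Rpl11 had 846 and 809 CPM in WT and 508 and 662 CPM in CD4/ALK4-KO (log2 fold change -0.50, SE 0.21, adjusted p = 0.075). Rps6, the target of the S6 kinases, had 1038 and 1002 CPM in WT and 787 and 805 CPM in CD4/ALK4-KO (log2 fold change -0.36, SE 0.20, adjusted p = 0.18). In all 3 the groups did not overlap and the difference did not pass the test. Leaving out a CD4/ALK4-KO library leaves 1 in that group. Without its replicate 1 the log2 fold changes of Rpl5, Rps7, Rpl11, Rplp0, Rplp2 and Rpl22l1 were -0.415, -0.593, -0.291, -0.336, -0.207 and -0.217. Without its replicate 2 they were -0.313, -0.342, -0.711, -0.406, -0.65 and -0.654. With the offset for coding length none of these genes was called. Under upper quartile scaling edgeR called Rpl11 and Rps7 lower (adjusted p = 0.041 and 0.033).

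At the rim of the exit tunnel, where the nascent chain leaves, 5 of 9 members were called lower (Rpl17, Rpl22, Rpl31, Rpl35 and Rpl38) and the median was -0.74. Of all tested genes 15.4% were called lower. Rpl31 had 950 and 817 CPM in WT and 482 and 651 CPM in CD4/ALK4-KO, and Rpl35 had 706 and 584 CPM in WT and 303 and 423 CPM in CD4/ALK4-KO. With the offset for coding length 0 of the 9 rim members were called, beside 13.3% of all tested genes called lower. Of the 18 members whose human orthologues are mutated in Diamond-Blackfan anaemia, 4 were called lower, among them Rpl31, Rpl35 and Rpl35a, with a median of -0.51. That is 22.2% of them, beside 32.1% of all tested members and 15.4% of all tested genes. Among the others on that list, Rps19, the most often mutated, had 891 and 896 CPM in WT and 733 and 788 CPM in CD4/ALK4-KO (adjusted p = 0.41).

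Some ribosomal proteins have a paralogue that can take their place, so the share of the paralogue in each pair was followed. The first 30 coding bases of 4 pairs are shown, with the bases that differ within a pair in capitals. These differences can tell the genes of a pair from each other, but not a gene from its other copies. Of the coding windows of Rps27 and of Rpl36a, 0 were absent from every other annotated gene.
Rps27: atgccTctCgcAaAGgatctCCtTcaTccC
Rps27l: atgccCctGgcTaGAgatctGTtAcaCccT
Rpl22: atggcgccTGTgaaaAaGCTTGTgGcGaag
Rpl22l1: atggcgccGCAgaaaGaCAAGAAgCcTaag
Rpl39: atgTcttctcacaagacTttcCgAatcaag
Rpl39l: atgGcttctcacaagacCttcAgGatcaag
Rpl36a: atggtGaacgtGccTaaaacccgCCggacA
Rpl36al: atggtCaacgtAccAaaaacccgAAggacT
The pairs differ at 10, 12, 4 and 6 of these 30 bases.

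None of the 8 pairs could reach significance, since the smallest two-sided p of the exact permutation test is 0.333. Rpl22l1 made up 15.1% and 21.1% of the counts of the pair with Rpl22 in WT and 21.3% and 21.5% in CD4/ALK4-KO. The WT libraries differed from each other by more than WT replicate 2 differed from CD4/ALK4-KO. Rpl22, a protein needed for the development of alpha-beta T cells, had 895 and 821 CPM in WT and 448 and 582 CPM in CD4/ALK4-KO (log2 fold change -0.74, SE 0.22, adjusted p = 0.011), and Rpl22l1 had 160 and 220 CPM in WT and 121 and 160 CPM in CD4/ALK4-KO (adjusted p = 0.15). The call of Rpl22 was lost without WT replicate 1 (adjusted p = 0.20), without WT replicate 2 (0.091), with the replicate block (0.062) and with the offset for coding length (0.21).

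Rps27l made up 97.8% and 98.0% of its pair in WT and 94.9% and 94.0% in CD4/ALK4-KO, a share that rests on the low counts of Rps27 described above. Rpl7l1 made up 7.49% and 7.38% of the pair with Rpl7 in WT and 7.99% and 7.61% in CD4/ALK4-KO. Both CD4/ALK4-KO libraries lay above both WT libraries, and the Wilson 95% intervals of all 4 overlap. Rpl36al, the intronless copy of Rpl36a, made up 24.3% and 28.5% in WT and 28.4% and 22.2% in CD4/ALK4-KO, so the replicates differed more than the genotypes. Rpl36a itself had 567 and 510 CPM in WT and 191 and 365 CPM in CD4/ALK4-KO (adjusted p = 0.0068), a call that was lost without WT replicate 1 (adjusted p = 0.077) and with the offset for coding length (0.14). Each interval covers counting error only.

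The remaining paralogues were scarce. Rpl39l had 11 and 21 counts in WT and 12 and 14 in CD4/ALK4-KO, against 2018 to 9568 counts of Rpl39. Rpl3l, of skeletal muscle and heart, had 4 and 16 counts in WT and 3 and 13 in CD4/ALK4-KO, against 13047 to 19953 counts of Rpl3. Rps4l, which GENCODE calls a transcribed processed pseudogene, had 121 and 55 counts in WT and 90 and 130 in CD4/ALK4-KO (log2 fold change 0.49, SE 0.37, adjusted p = 0.33). It made up 0.218% to 0.696% of the pair with Rps4x over the 4 libraries, and the genotypes overlapped.

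**Figure D5:**
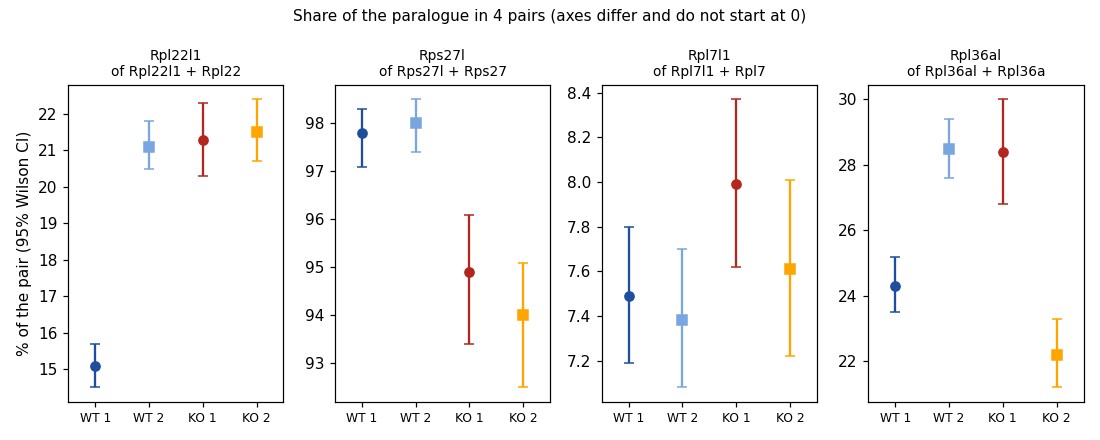
Each panel gives, for 1 pair, the percentage of the pair's counts that fell on the paralogue in each of the 4 libraries (KO stands for CD4/ALK4-KO), with 95% Wilson intervals for counting error; the vertical axes differ and do not start at 0. For Rpl22l1, WT replicate 1 at 15.1% stands below the other libraries at 21.1% to 21.5%, and for Rps27l both CD4/ALK4-KO libraries stand below both WT libraries.

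Symbols of pseudogenes took a small part of all counts. As only 19 of the 686 pseudogenes that share a window have their symbol in the files, this does not measure all reads lost to pseudogenes. The 9 symbols with the ending -ps together held 0.0280% and 0.0254% of all counts in WT and 0.0196% and 0.0216% in CD4/ALK4-KO (exact permutation p = 0.333). Rpl14-ps1 had 2654 and 2597 counts in WT and 1546 and 1975 in CD4/ALK4-KO. Rps6-ps4 had 1155 and 867 counts in WT and 735 and 506 in CD4/ALK4-KO, or 4.85% to 7.51% of the pair with Rps6. Rpl37rt, a transcribed copy of Rpl37, had 1211 and 1188 counts in WT and 216 and 618 in CD4/ALK4-KO, the same order of libraries as Rpl37 itself. It made up 9.43% and 9.49% of the pair with Rpl37 in WT and 6.7% and 8.98% in CD4/ALK4-KO. Rpl32l, a member by its symbol and a copy of Rpl32, was called lower with 373 and 375 counts in WT and 127 and 216 in CD4/ALK4-KO (adjusted p = 0.011); it lies within Map7, and Rpl32 had 22586 and 21778 counts in WT and 8667 and 13537 in CD4/ALK4-KO. The share of Rpl32l in the pair with Rpl32 was 1.44% to 1.69%. Counts of such copies and of their parents cannot be told apart where they share all bases of a read.

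The ribosomal protein genes Rpl36al, Rack1 and Fau, outside the rule, had values in the range of the members. Rpl36al fell from 182 and 203 CPM in WT to 75.7 and 104 CPM in CD4/ALK4-KO (adjusted p = 0.00061). Rack1, a scaffold on the small subunit, had 3335 and 3445 CPM in WT and 2899 and 2762 CPM in CD4/ALK4-KO (adjusted p = 0.30), and Fau, a ubiquitin-like fusion, had 892 and 775 CPM in WT and 630 and 839 CPM in CD4/ALK4-KO (adjusted p = 0.56).

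Other genes of the translation machinery were set beside the members. Of the 78 mitochondrial ribosomal proteins, which build the separate ribosome of that organelle, 28 were called lower and 0 higher. That is 35.9% of them called lower, beside 15.4% lower and 17.4% higher of all tested genes. Their median log2 fold change was -0.45, against -0.46 for the cytosolic family. With an offset for coding length 7 of the 78 were called, beside 13.3% of all tested genes, a larger share than of these proteins. Without WT replicate 1 or WT replicate 2 most of the 28 calls were lost, and fewer of all tested genes were called too. Beside 15.4% of all tested genes, 19 of the 41 ribosome biogenesis factors (46.3%) were called lower and 0 higher, with a median of -0.51. Among them Npm1, a nucleolar chaperone, had 1828 and 2108 CPM in WT and 1041 and 914 CPM in CD4/ALK4-KO (log2 fold change -1.01, SE 0.20, adjusted p = 0.00056), and Ncl, nucleolin, had 1819 and 1799 CPM in WT and 1290 and 1117 CPM in CD4/ALK4-KO (adjusted p = 0.026). With the offset for coding length 16 of the biogenesis factors were called, 13 of them among the 19, beside 13.3% of all tested genes. Without WT replicate 1 or WT replicate 2 most of the 19 calls were lost, again with fewer calls over all tested genes.

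Of the 15 other genes listed for mRNAs with a TOP motif, mostly translation factors, 3 were called lower (Eef1d, Naca and Nap1l1) and the median was -0.26. Eef1a1, which delivers aminoacyl-tRNA to the ribosome, had 10849 and 10839 CPM in WT and 9446 and 8623 CPM in CD4/ALK4-KO (adjusted p = 0.24), and Tpt1 had 3454 and 4031 CPM in WT and 3743 and 3280 CPM in CD4/ALK4-KO (adjusted p = 0.75). With WT replicate 1 left out, and likewise with WT replicate 2 left out, 0 of the 15 were called. Of the 32 tested initiation factors 5 were called lower (Eif2b3, Eif2s1, Eif3b, Eif4a1 and Eif4e) and 0 higher, with a median of -0.21. That is 15.6% of them, close to the 15.4% of all tested genes. Eif4e, the cap-binding protein, had 216 and 212 CPM in WT and 134 and 96.2 CPM in CD4/ALK4-KO (adjusted p = 0.0038). Of the termination and recycling factors 2 of 8 were called lower, Abce1 and Denr, and of the dedicated chaperones 2 of 8, Nap1l1 and Rrs1. Each is 25.0% of its list, beside the same 15.4%. Nap1l1 also stands on the TOP list, and Rrs1 among the biogenesis factors. Of the 8 regulators of TOP mRNAs, 1 was called lower and 1 higher, beside 15.4% lower and 17.4% higher of all tested genes. Eif4ebp1 was called lower with 179 and 118 CPM in WT and 68.3 and 71.2 CPM in CD4/ALK4-KO (adjusted p = 0.00084). Eif4ebp2 was called higher with 285 and 239 counts in WT and 390 and 371 counts in CD4/ALK4-KO (adjusted p = 0.032). Mtor had 27.2 and 22.0 CPM in WT and 27.6 and 40.5 CPM in CD4/ALK4-KO (adjusted p = 0.16).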

How the data were processed

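Cells from lung tumors, labelled as CD4+ T cells, were profiled by poly(A) RNA-Seq, 2 libraries per genotype. The authors deposited raw counts per gene symbol, made with htseq-count from single-end 75 bp reads that HISAT2 had placed on mm10; the annotation, strand setting and handling of reads with several alignments are not given in the sources used here. Library preparation did not mark strand, so overlapping genes cannot be told apart. Members and lists were chosen with earlier results of these data known.

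Counts were tested with edgeR 4.0.16 (R 4.3.3; expression filter, TMM, robust quasi-likelihood, genotype alone) over 13919 genes, with Benjamini-Hochberg adjustment; the standard error is the absolute log2 fold change over the root of F. CPM use TMM-adjusted totals. Named members were the 8 most abundant, the 6 largest and smallest log2 fold changes, the 6 smallest p-values among called members, members not tested, paralogue pairs, the P stalk, Rpsa, Rpl5, Rpl11 and Rps6; other genes are their lists' called and most abundant genes. A few members beyond this rule were named after their values were seen. Shares were compared by exact permutation tests (scipy 1.17.1). Windows of 75 bases and coding lengths came from GENCODE M21 transcripts (GRCm38), not the genome; promoters came from RefSeq GRCm38.p6. DESeq2 1.42.0 was an alternative. In counts simulated from these libraries, edgeR recovered 94.5% of genes changed by 2 and 38.6% of those changed by 1 on the log2 scale, with 7 false calls among 13736 genes. The simulation gave every gene the same dispersion (spread between replicates beyond counting noise) and no trend with coding length. Its rates therefore do not carry over to the members. With n = 2, p-values measure the spread between these libraries only. Replicates differed by more than sampling noise (chi-square per degree of freedom 16.0 in WT and 28.7 in CD4/ALK4-KO). Over the members alone the values were 50.0 in WT and 388 in CD4/ALK4-KO. Alternatives were other scalings, filters, DESeq2, a replicate block, left-out libraries and a coding length offset. A few items are not reported here by name.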

Additional observations from a re-analysis of the deposited data

How the results depend on the processing

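Scaling to 4 T cell receptor complex genes moved the median log2 fold change of all tested genes to -2.19 and called 92.0% of them lower and 0.345% higher, against 15.4% and 17.4% in the reported fit. On that scale 83 members were called lower, with a median of -2.63, or -0.44 relative to all genes. The ratio of member counts to T cell receptor complex counts differed by -368 between CD4/ALK4-KO and WT, and that of the pseudogenes by -1.22. With the coding length offset 4 members were called lower, with a median of -0.22; the cause was not tested. Leaving out 1 library gave 9 to 49 members called lower and medians from -0.62 to -0.34, and the share of counts on members differed by -2.39 to -1.27 percentage points. Leaving out a library leaves 1 in its group, which is then assumed to vary like the other group. Members called higher stayed at 0 under every alternative run.

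The replicate numbers were shared by the genotypes, but same-numbered libraries deviated in opposite ways (correlation -0.214 across genes). The labels link them by number only, and whether libraries of unlike number share a batch was not tested. With the replicate block 17 members were called lower, 14 of them among the 27, beside 10.4% of all tested genes. With the numbers crossed, chosen after seeing the data, 49 members were called lower, beside 21.8% of all tested genes.

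Signs turned for genes not called in the reported fit. With the coding length offset Rpl13a had 0.17, Rpl39l 0.56, Rpl9 0.18, Rps13 0.28 and Rps3 0.062 on the log2 scale. On the T cell receptor scale Rps27 had -1.92, Rps4l -1.67 and Rpsa -2.18, and under upper quartile scaling Rpsa had -0.06. As each library was left out, Rpl13a ran from -0.16 to 0.058, Rpl39l from -0.54 to 0.40, Rpl3l from -1.52 to 1.13, Rps13 from -0.073 to 0.031, Rps27 from -0.074 to 0.53 and Rpsa from -0.065 to 0.072. The difference in the share of Rpl3l in its pair then ran from -0.0274 to 0.0417 percentage points and that of Rpl36al from -4.20 to 2.00.

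Removing globin and immunoglobulin genes from the totals took out 11 symbols with 133 to 582 counts and left the shares of members unchanged to 3 digits; no mitochondrially encoded gene was in the tables used here. At 2 libraries per genotype changes of 1 on the log2 scale were often missed in simulated counts, and members with few counts, such as Rpl26 and Rps27, allow only large differences to be seen.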
